A study of Mus musculus with 17 samples.

Results

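Mast cell identity genes are described here in colon tumors and preneoplastic colon of mice given azoxymethane, a chemical carcinogen of the rodent colon. The genes were chosen by symbol as Kit, Cpa3, Tpsb2, Tpsab1, Cma1, Ms4a2, Gata2 and Hpgds, which are 8 of the 988 genes read by a targeted immuno-oncology panel, and all 8 were measured. The panel amplifies short stretches of chosen transcripts by multiplex PCR, and the values are counts per gene in 17 libraries of whole tissue. Kit-B6 mice carry normal Kit on the C57BL/6 background. Kit-W/sh samples came from W-sash mice, whose inversion near Kit alters its regulation in many tissues, and such mice lose most mast cells as adults. Because the inversion spares the protein-coding part, Kit counts measure a transcript level and are no genotype test. All 4 groups had received azoxymethane, and no untreated colon was used here. Tumors (6 Kit-B6 and 6 Kit-W/sh) were taken at postnatal week 32, after 6 injections over 6 weeks and a further 18 weeks. Preneoplastic colon (3 Kit-B6 and 2 Kit-W/sh) was taken at postnatal week 14, after 3 injections over 3 weeks and a further 3 weeks. Stage is therefore tied to age, dose and tissue, and these cannot be told apart. Library totals ran from 616009 to 1399902 counts, and 3 counts were used as the floor of detection. By unscaled totals this floor corresponded to between 2.14 and 4.87 CPM, the unit used below for counts scaled to library size. Levels below also carry TMM scaling, so 3 counts can lie above this range, as at 5.5 CPM for Cpa3 in Kit-B6 preneoplastic sample 1.

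Mast cells are tissue-resident immune cells that develop and survive through signals from Kit, the receptor for stem cell factor. They store proteases in their granules: Cpa3 encodes mast cell carboxypeptidase A, Tpsb2 encodes a beta tryptase, and Cma1 encodes a chymase. Tpsab1 is a related tryptase gene, whose annotation is given below. Ms4a2 encodes the beta chain of the high-affinity IgE receptor, which triggers the release of these granules. Gata2 is a transcription factor needed for the mast cell lineage, and Hpgds makes prostaglandin D2, a lipid mediator of mast cells. The set is not equally specific. Kit also marks interstitial cells of Cajal and melanocytes, Gata2 is used by endothelial and blood progenitor cells, and Hpgds is also made by other immune cells. In bulk tissue, fewer mast cells and less RNA per mast cell cannot be told apart. RefSeq annotates Tpsab1 of the C57BL/6 reference (GRCm38.p6) as a transcribed pseudogene next to Tpsb2 on chromosome 17. In the best alignment of reference transcripts of Tpsb2 and Tpsab1, 76.9% of 843 aligned positions were identical and the longest shared run was 39 bases. Amplicon positions are not given in the sources used here, so the division of reads between the 2 tryptases is uncertain.

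Promoter sequences were found in RefSeq (GRCm38.p6) for 6 of the 8 genes, and none for Tpsb2 and Tpsab1. GATA factors bind DNA with a GATA core, and MITF, a further regulator of mast cells, binds CATGTG, so GATAA and CATGTG were searched on both strands of the 250 bases before each start site. The 4 promoters that held a match are shown with the matches in capitals, because these genes include the granule and receptor genes whose levels vary most between the libraries below.
Cpa3: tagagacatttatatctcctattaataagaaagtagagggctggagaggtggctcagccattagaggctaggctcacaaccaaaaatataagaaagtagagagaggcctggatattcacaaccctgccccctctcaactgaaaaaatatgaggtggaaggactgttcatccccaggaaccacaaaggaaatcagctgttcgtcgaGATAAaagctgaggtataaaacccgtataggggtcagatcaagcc
Ms4a2: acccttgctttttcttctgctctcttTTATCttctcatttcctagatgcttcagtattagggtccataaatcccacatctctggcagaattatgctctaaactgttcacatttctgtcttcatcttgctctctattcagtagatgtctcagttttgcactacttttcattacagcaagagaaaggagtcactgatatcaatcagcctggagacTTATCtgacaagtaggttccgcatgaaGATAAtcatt
Cma1: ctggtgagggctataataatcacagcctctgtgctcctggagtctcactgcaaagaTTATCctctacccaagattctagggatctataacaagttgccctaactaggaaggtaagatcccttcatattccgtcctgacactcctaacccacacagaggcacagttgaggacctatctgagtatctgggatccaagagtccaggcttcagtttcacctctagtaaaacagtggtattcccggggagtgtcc
Hpgds: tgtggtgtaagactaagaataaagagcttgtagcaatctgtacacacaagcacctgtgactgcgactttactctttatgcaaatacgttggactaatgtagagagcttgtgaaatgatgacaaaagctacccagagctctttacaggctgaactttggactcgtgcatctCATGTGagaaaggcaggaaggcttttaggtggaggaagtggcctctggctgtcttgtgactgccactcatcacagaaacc

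These windows lie on the minus strand at chr3:20242182-20242431 (Cpa3), chr19:11623720-11623969 (Ms4a2), chr14:55944676-55944925 (Cma1) and chr6:65144731-65144980 (Hpgds), and each sequence reads 5′ to 3′ toward its gene. TTATC is GATAA on the other strand. The Cpa3 window held 1 GATAA, from 45 to 41 bases before the start site, the Cma1 window 1 and the Ms4a2 window 3. The Hpgds window held 1 CATGTG, from 80 to 75 bases before the start site, and no GATAA. The 2 Kit and 2 Gata2 windows held neither. Over 27025 promoters in the RefSeq table, 23.0% held a GATAA and 12.2% a CATGTG in a window of this length, so a match alone is common and describes only the letters.

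The library labelled Kit-W/sh tumor 2 went against its label and is named so throughout. It had the highest Cpa3, Tpsab1, Cma1 and Ms4a2 of all 17 libraries, the second highest Tpsb2 and Gata2, the third highest Hpgds and the sixth highest Kit. Its 596 Cpa3 counts compare with 21 in the other 5 Kit-W/sh tumors together. The fold changes of the 8 genes that use Kit-W/sh tumors are given with and without it. The values of these genes singled it out, so values and p-values without it are conditioned on that choice and serve as descriptions.

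Kit, which stem cell factor activates on mast cells, had a lower group mean in Kit-W/sh at both stages, and the difference did not pass adjustment over all genes. In Kit-B6 tumors it was at 93.7, 331, 137, 473, 169 and 124 CPM in samples 1 to 6. Its Kit-W/sh tumor levels were 77.0, 258, 48.9, 99.5, 83.1 and 67.8 CPM. Only the library labelled Kit-W/sh tumor 2 exceeded 100 CPM in that group, and without it the remaining 5 overlapped the Kit-B6 tumors through Kit-B6 tumor 1. In preneoplastic colon Kit was at 268, 343 and 521 CPM for Kit-B6, above the 127 and 113 CPM for Kit-W/sh. The order of group means was Kit-B6 preneoplastic (377 ± 130 CPM, SD, n = 3), Kit-B6 tumor (221 ± 149, n = 6), Kit-W/sh preneoplastic (120 ± 9.73, n = 2) and Kit-W/sh tumor (106 ± 76.3, n = 6). Each neighbouring pair in that order overlapped.

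Cpa3, the mast cell carboxypeptidase, had the widest range of the 8 genes over the libraries on the log2(CPM + 1) scale. In Kit-B6 tumors it was at 72.7, 83.8, 11.6, 11.3, 256 and 22.4 CPM in samples 1 to 6. The Kit-W/sh tumors had 9.81, 460, 0, 0.772, 2.57 and 3.67 CPM. All 6 Kit-B6 tumors thus stood above 5 Kit-W/sh tumors and below the library labelled Kit-W/sh tumor 2. In preneoplastic colon Kit-B6 samples gave 3, 6 and 1 counts (5.50, 10.9 and 1.55 CPM), near the floor of detection, and both Kit-W/sh samples gave 0. A count of 0 allows up to 4.83 and 3.68 CPM in those 2 libraries by unscaled totals, and more on the TMM scale of these levels.

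Tpsb2, the tryptase that RefSeq annotates as protein-coding, was present in every library. In Kit-B6 tumors it was at 55.7, 14.0, 16.8, 23.7, 275 and 28.3 CPM. The Kit-W/sh tumors had 9.06, 185, 0.815, 5.40, 30.8 and 22.9 CPM. Kit-B6 tumor 5 and the library labelled Kit-W/sh tumor 2 stood above all others, and the remaining tumors of the 2 genotypes overlapped. Preneoplastic levels were 9.17, 14.5 and 26.4 CPM for Kit-B6 and 7.23 and 9.63 CPM for Kit-W/sh, again overlapping.

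Tpsab1, the neighbouring tryptase gene, gave 13, 2, 2, 0, 52 and 0 counts in Kit-B6 tumors 1 to 6. It gave 3, 70, 0, 0, 0 and 0 counts in Kit-W/sh tumors 1 to 6, and 0 counts in all 5 preneoplastic libraries. The same 2 tumors that led for Tpsb2 held most of its counts. As a share of all tryptase counts, Tpsab1 made up 22.6% for the library labelled Kit-W/sh tumor 2 (70 of 310 counts, 95% exact Clopper-Pearson interval 18.0 to 27.6%) and 11.9% in Kit-B6 tumor 5 (52 of 438 counts, 9.0 to 15.3%). These intervals, which cover counting error only, do not overlap, and the 2 libraries were singled out by their high counts. The intervals of Kit-B6 tumor 1 (15.9% of 82 counts, 8.72 to 25.6%) and Kit-W/sh tumor 1 (20.0% of 15 counts, 4.33 to 48.1%) overlap both. Over Kit-W/sh tumors 3 to 6 the share was 0 of 69 counts, with an upper bound of 5.21%, and in preneoplastic colon 0 of 41 counts, with an upper bound of 8.60%.

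Cma1, the chymase, followed a different order among the libraries. In Kit-B6 tumors it was at 14.5, 9.77, 18.9, 50.4, 22.1 and 3.54 CPM. Levels in Kit-W/sh tumors were 9.81, 53.2, 15.5, 8.49, 6.85 and 10.1 CPM. The groups overlapped over most of their range. Its highest Kit-B6 tumor was sample 4, where Cpa3 was at its lowest among Kit-B6 tumors. Preneoplastic Kit-B6 samples gave 16.5, 25.4 and 0 CPM and Kit-W/sh samples 14.5 and 9.63 CPM.

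Ms4a2, the IgE receptor beta chain, was at or under the floor of 3 counts in 15 of the 17 libraries. The exceptions were the library labelled Kit-W/sh tumor 2, with 36 counts (27.8 CPM), and Kit-B6 tumor 5, with 6 counts (4.28 CPM). Both preneoplastic Kit-W/sh libraries gave 0 counts against 2, 1 and 3 in Kit-B6, and at this depth no difference can be read from these values.

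Gata2, the lineage transcription factor, was at 29.9, 72.6, 67.3, 53.5, 136 and 106 CPM in Kit-B6 tumors. Kit-W/sh tumors had 45.3, 120, 29.3, 36.3, 48.0 and 105 CPM, and the 2 groups overlapped almost fully. Preneoplastic levels were 60.5, 25.4 and 27.9 CPM for Kit-B6 and 21.7 and 42.7 CPM for Kit-W/sh. Hpgds, the prostaglandin D2 synthase, was at 165, 129, 190, 162, 525 and 124 CPM in Kit-B6 tumors. Kit-W/sh tumors had Hpgds at 109, 248, 64.3, 94.9, 140 and 158 CPM. The ranges of Hpgds overlapped between the genotypes, and Kit-B6 tumor 5 stood far above every other tumor. Preneoplastic Hpgds was at 293, 167 and 240 CPM for Kit-B6 and 212 and 246 CPM for Kit-W/sh.

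**Figure D1:**
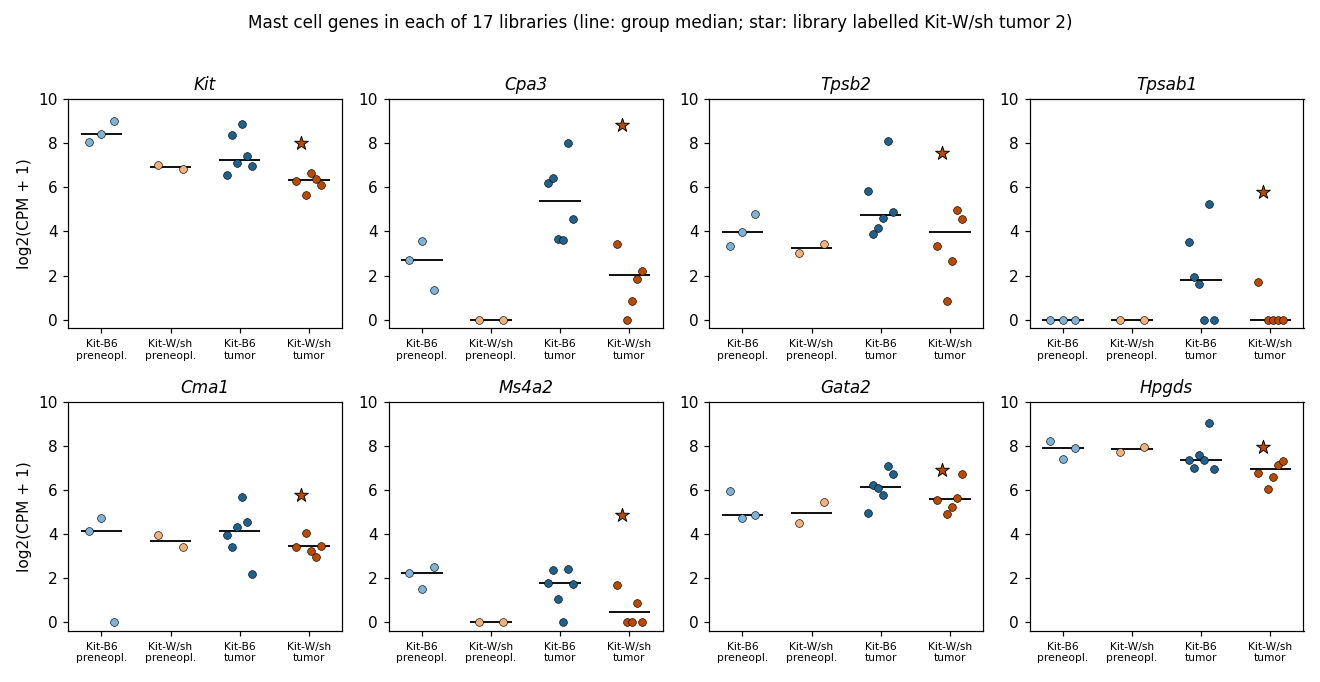
Level of each of the 8 genes, as log2(CPM + 1), in the 17 libraries by genotype and stage, with each point 1 library, a line at the group median and a star for the library labelled Kit-W/sh tumor 2. The star lies above the other 5 Kit-W/sh tumors in all 8 panels, and the 6 Kit-B6 tumors lie between those 5 and the star for Cpa3.

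To ask whether mast cell transcripts differed between genotypes in tumors, the 12 tumors were compared with edgeR's quasi-likelihood test, with Benjamini-Hochberg adjustment over all genes tested. Of the 8 genes, 6 had enough counts to be tested, and 0 of 6 passed, as did 0 of all 799 genes (0.0% called). Before adjustment 109 genes (13.6%), including Kit, had a p under 0.05, and DESeq2 called 24 genes, none of them among the 8. The Kit log2 fold change, Kit-W/sh over Kit-B6, was -1.08 ± 0.48 (SE; edgeR adjusted p = 0.363). It was -0.68 ± 0.41 for Hpgds, -0.71 ± 1.04 for Tpsb2, -0.29 ± 0.43 for Gata2 and -0.20 ± 0.63 for Cma1. Leaving out Kit-B6 tumor 5 turned Tpsb2 to 0.61, and leaving out Kit-B6 tumor 4 turned Cma1 to 0.27. The Cpa3 value was 0.06 ± 1.39, with means of 79.4 ± 186 CPM in Kit-W/sh and 76.3 ± 93.4 CPM in Kit-B6 tumors (SD, n = 6 each). The median log2 fold change of the 6 genes was -0.48, against -0.01 over all genes tested.

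Without the library labelled Kit-W/sh tumor 2, the difference widened for every tested gene of the set, and again none passed adjustment. Cpa3 then averaged 3.36 ± 3.88 CPM in Kit-W/sh tumors (n = 5), with a log2 difference of -4.48 ± 1.05 (edgeR unadjusted p = 0.00104, adjusted p = 0.0517). Kit averaged 75.3 ± 18.7 CPM and its log2 fold change was -1.58 ± 0.42 (edgeR adjusted p = 0.0744). The values were -2.37 ± 0.94 for Tpsb2 (edgeR adjusted p = 0.192), -0.96 ± 0.40 for Hpgds (edgeR adjusted p = 0.21), -0.99 ± 0.54 for Cma1 and -0.58 ± 0.43 for Gata2. Cpa3 was the 1 gene of the 8 whose groups then did not overlap (1.0% of the 799 genes, 8 genes, were lower without overlap), and nothing is read from this, since its level helped to single out the library left out.

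A two-sided exact permutation test on log2(CPM + 1) gave a value for all 8 genes, including Tpsab1 and Ms4a2. Over all 12 tumors the differences of means ran from -2.55 for Cpa3 (exact permutation p = 0.113, adjusted over 801 genes p = 0.489) to -0.20 for Cma1, all 8 lower in Kit-W/sh. Without the library labelled Kit-W/sh tumor 2 they were -3.74 for Cpa3 (exact permutation p = 0.00649, adjusted p = 0.121), -1.34 for Kit (exact permutation p = 0.00866, adjusted p = 0.139), -1.71 for Tpsab1 (exact permutation p = 0.119) and -1.04 for Ms4a2 (exact permutation p = 0.0801). The smallest p that these groups allow is 0.00216.

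**Figure D2:**
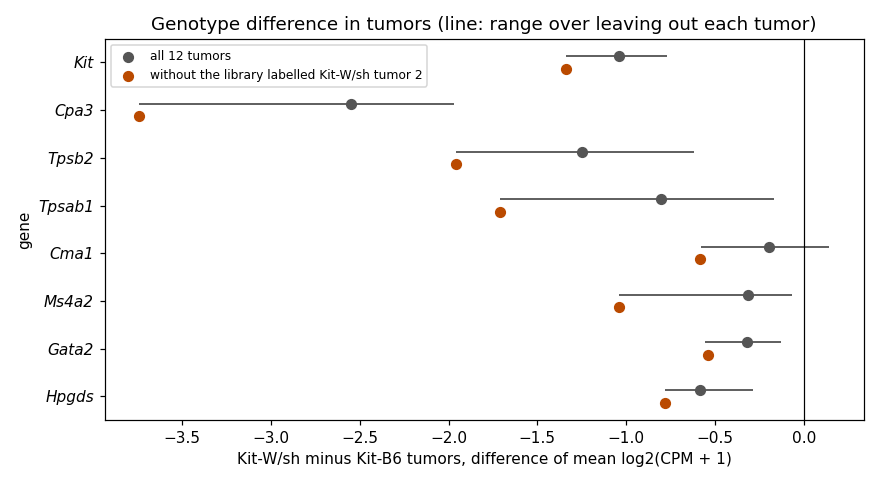
Difference of mean log2(CPM + 1) between Kit-W/sh and Kit-B6 tumors for the 8 genes, over all 12 tumors and without the library labelled Kit-W/sh tumor 2, with lines for the range over leaving out each tumor in turn. Cpa3 moved from -2.55 to -3.74, Tpsab1 from -0.81 to -1.71 and Ms4a2 from -0.32 to -1.04, and the line for Cma1 crosses 0.

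In preneoplastic colon, 3 of the 8 genes (Kit, Gata2 and Hpgds) could be tested, and 0 of 3 passed, where 1 of 777 genes was called (0.129%), or 16 without Kit-B6 preneoplastic sample 1. Kit had a log2 difference of -1.68 ± 0.35 in Kit-W/sh (edgeR unadjusted p = 0.00252, adjusted p = 0.253). DESeq2 called it (adjusted p = 0.00139), and edgeR did so without Kit-B6 preneoplastic sample 1 (adjusted p = 0.0403). Gata2 (-0.24 ± 0.57) and Hpgds (-0.05 ± 0.31) stayed within their errors, with edgeR adjusted p-values of 0.906 and 0.963. Kit was lower in Kit-W/sh without overlap, as were 13.4% of the 777 genes tested in this comparison of 3 and 2 libraries. Cpa3 and Ms4a2, too low to be among those genes, also did not overlap, at 1 to 6 and 1 to 3 counts against 0. B cell genes, which mark lymphoid tissue in the sample, summed to 152 to 2920 CPM in Kit-B6 and 151 to 327 CPM in Kit-W/sh preneoplastic colon over 8 measured genes, and their part in the Kit difference was not tested.

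Between stages, 7 of the 8 genes were tested in 1 fit of all 17 libraries, and 0 of 7 passed in either genotype, nor had any an unadjusted edgeR p under 0.05. In Kit-B6 mice 357 of 869 genes were called (41.1%), 193 of them higher in tumors (54.1% of calls, or 73.0% with unscaled totals). Cpa3 averaged 5.98 ± 4.69 CPM (n = 3) in preneoplastic colon and 76.3 ± 93.4 CPM (n = 6) in tumors. This difference, 3.68 ± 2.15 on the log2 scale, did not pass (edgeR adjusted p = 0.176), and its groups did not overlap, as for 16.2% of genes on the higher side. No fold is given for Tpsab1, which had 0 counts in all preneoplastic libraries. It did not pass in Kit-B6 (edgeR adjusted p = 0.207) or Kit-W/sh (edgeR adjusted p = 0.279, or 0.653 without the library labelled Kit-W/sh tumor 2). The other values in Kit-B6 were 2.04 ± 1.33 for Tpsb2, 1.03 ± 0.56 for Gata2, 0.53 ± 0.92 for Cma1, -0.11 ± 0.45 for Hpgds and -0.77 ± 0.52 for Kit. Kit and the granule protease Cpa3 thus had opposite signs between stages, neither past the threshold.

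In Kit-W/sh mice 345 of 869 genes were called (39.7%), 182 of them higher in tumors (52.8% of calls, or 70.1% with unscaled totals), and 132 and 159 were called without preneoplastic sample 1 or 2. Tpsb2 differed by 2.30 ± 1.67 on the log2 scale (edgeR adjusted p = 0.277), or 0.68 ± 1.32 without the library labelled Kit-W/sh tumor 2. Gata2 was at 0.98 ± 0.66, Cma1 at 0.53 ± 1.07, Hpgds at -0.75 ± 0.51 and Kit at -0.18 ± 0.62. Without that library Gata2 was at 0.70 ± 0.62, Cma1 turned to -0.23 ± 0.94, Hpgds was at -1.01 ± 0.48 and Kit at -0.67 ± 0.52, and none passed. No fold is given for Cpa3, which had 0 counts in preneoplastic Kit-W/sh colon and 617 in tumors, 596 of them in the 1 library. DESeq2 called that change (adjusted p = 0.00456), and the edgeR fit of all 17 libraries did not (adjusted p = 0.107, or 0.236 without that library). Unscaled totals shifted the CPM of tumors against preneoplastic colon by a mean of 0.25 on the log2 scale in both genotypes, and fitted changes moved by unequal amounts around this. The difference of the genotype effect between stages was tested for the same 7 genes, and 0 passed, as did 0 of 869 genes (0.0%), with 63 genes (7.25%) under 0.05 before adjustment and 1 call by DESeq2. For Kit it was 0.59 ± 0.83 on the log2 scale (edgeR adjusted p = 0.894), and 0.10 ± 0.69 without the library labelled Kit-W/sh tumor 2.

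Between single libraries, the genes fell into different patterns. Summed over the 8 genes, Kit-B6 tumor 5 (1420 CPM) and the library labelled Kit-W/sh tumor 2 (1410 CPM) led the tumors. Kit-B6 tumor 5 had the highest Tpsb2, Gata2 and Hpgds of the 17 libraries and the second highest Cpa3 and Tpsab1, while its Kit, at 169 CPM, ranked below Kit-B6 tumors 2 and 4. The highest Kit levels lay elsewhere. Kit-B6 preneoplastic sample 3 had 521 CPM of Kit with 1.55 CPM of Cpa3 and 0 of Cma1, and Kit-B6 tumor 4 had 473 CPM of Kit with 11.3 CPM of Cpa3. Markers of other cells were also high in tumor 4. Thbs4, listed with genes of interstitial cells of Cajal, was at 5210 CPM there against 226 to 2590 CPM in the other 11 tumors, and Car4, a gene of differentiated colonocytes, at 14800 against 98.5 to 4790 CPM. In preneoplastic colon Thbs4 and Kit were not high together. Thbs4 was at 3370 and 3380 CPM in Kit-W/sh, with Kit at 127 and 113 CPM. Kit-B6 preneoplastic sample 3, highest for Kit, had the lowest Thbs4 of its group (1730 CPM). The part of Thbs4 and Car4 expressing cells in the Kit level was not tested.

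**Figure D3:**
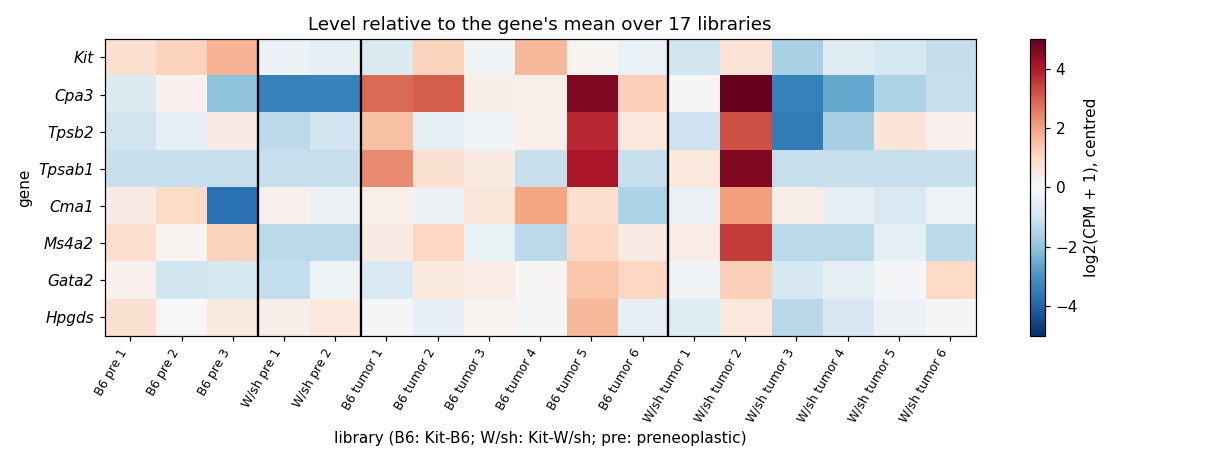
Level of the 8 genes in each library, as log2(CPM + 1) minus the gene's mean over the 17 libraries, with red above and blue below the mean and black lines between groups. All values of the library labelled Kit-W/sh tumor 2 lie above the mean for the 8 genes, as most do for Kit-B6 tumor 5, whereas Kit-B6 preneoplastic sample 3 and Kit-B6 tumor 4 are high for Kit and near or below the mean for Cpa3.

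The balance of the proteases also differed between libraries. The ratio of Cpa3 to Tpsb2 counts depends on the amplicons and is compared only between libraries. It was 2.48 for the library labelled Kit-W/sh tumor 2 and 0.93 for Kit-B6 tumor 5, where Cpa3 made up 71.3% (95% exact interval 68.1 to 74.3%) and 48.2% (44.5 to 51.8%) of the counts of the pair. Kit-B6 tumor 2 had the highest ratio, 6.00, on 60 and 10 counts (85.7%, 75.3 to 92.9%). Kit-W/sh tumors 5 and 6, which had 36 and 25 counts of Tpsb2, gave only 3 and 4 counts of Cpa3, or 7.69% (1.62 to 20.9%) and 13.8% (3.89 to 31.7%) of the pair. Tpsb2 was thus present in Kit-W/sh tumors in which Cpa3 was near the floor.

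**Figure D4:**
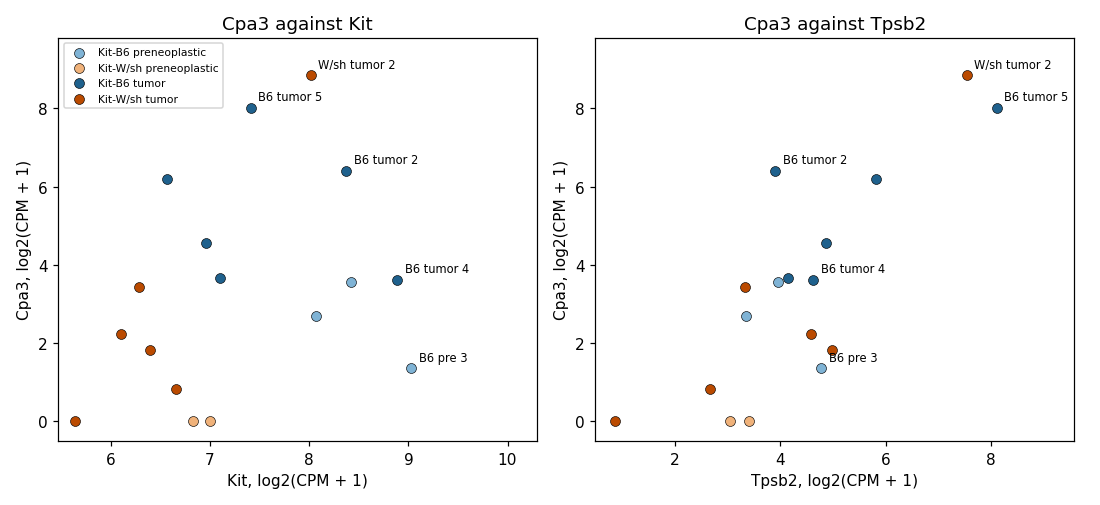
Cpa3 against Kit (left) and against Tpsb2 (right), both as log2(CPM + 1), with each point 1 of the 17 libraries coloured by group. The 2 libraries with the highest Cpa3, at 460 and 256 CPM, also have the highest Tpsb2, while the 2 with the highest Kit have Cpa3 at 1.55 and 11.3 CPM.

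Correlations were computed within the 6 tumors of each genotype, so that the genotype difference itself did not enter, and the labels do not say whether all tumors came from different mice. Over the 28 pairs of the 8 genes the median Spearman rho was 0.23 in Kit-B6 tumors and 0.54 in Kit-W/sh tumors. Over all 318801 pairs of the 799 genes tested in tumors it was -0.03 and 0.03. In Kit-B6 tumors 3 pairs (10.7%) reached a rho of at least 0.8, where 4.64% of the 318801 pairs did. In Kit-W/sh tumors 8 pairs (28.6%) reached it, where 4.95% did. The 799 genes leave out Tpsab1 and Ms4a2, too low to be tested, so like pairs are not compared. The 3 Kit-B6 pairs were Cpa3 with Tpsab1, Cpa3 with Ms4a2 and Tpsab1 with Ms4a2. The same 3 were among the 8 in Kit-W/sh tumors. No pair of the other 6 genes reached 0.8 in Kit-B6 tumors. The medians rested in part on the leading libraries. Without the library labelled Kit-W/sh tumor 2 the Kit-W/sh median was 0.16, and without Kit-B6 tumor 5 the Kit-B6 median was -0.10. No pair passed adjustment over the 6372 pairs of a member with a tested gene in either genotype.

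Cpa3 and Ms4a2 had the same order in the 6 Kit-B6 tumors (rho = 1.0, exact permutation p = 0.00278, adjusted p = 0.764; Pearson r = 0.84, exact permutation p = 0.0347, adjusted p = 0.71), with Ms4a2 at 0 to 6 counts. Their r was 0.87 without the 2 tumors farthest from the median Cpa3. Among Kit-W/sh tumors this pair had a rho of 0.82 (exact permutation p = 0.0667), with 3 of the tumors at 0 counts of Ms4a2. Cpa3 and Kit were not ordered alike in Kit-B6 tumors (rho = -0.14, exact permutation p = 0.803; r = -0.18, exact permutation p = 0.679). Among Kit-W/sh tumors their r was 0.90 (exact permutation p = 0.0514; rho = 0.49, exact permutation p = 0.356), and 0.34 without the library labelled Kit-W/sh tumor 2, so the relation rests on that library.

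Gata2 and Hpgds had the same order in the 6 Kit-W/sh tumors (rho = 1.0, exact permutation p = 0.00278, adjusted p = 0.678; r = 0.92, exact permutation p = 0.00139, adjusted p = 0.45). Their rho was also 1.0, and r 0.86, without the library labelled Kit-W/sh tumor 2. Tpsb2 followed Hpgds in the same tumors (rho = 0.94, exact permutation p = 0.0167; r = 0.99, exact permutation p = 0.00417, adjusted p = 0.45), with r at 0.98 without that library. In Kit-B6 tumors Gata2 and Hpgds had a rho of 0.03 (exact permutation p = 1.0) and an r of 0.46 (exact permutation p = 0.368). The difference between the genotypes in these correlations was not tested.

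**Figure D5:**
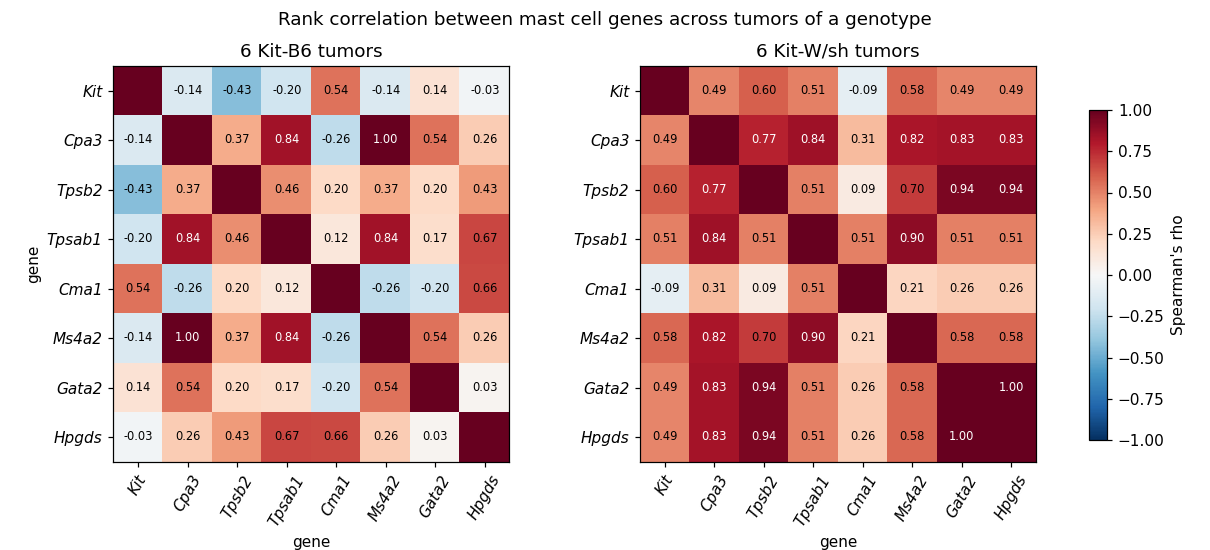
Spearman's rho between the 8 genes across 6 Kit-B6 tumors (left) and 6 Kit-W/sh tumors (right), with each cell 1 pair of genes. Of the 28 pairs, 20 are positive on the left and 27 on the right, and Gata2 with Hpgds is at 0.03 on the left and 1.00 on the right.

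The genes most like each member were taken as the 3 with the highest likeness, the lower of the 2 rho values over the 6 tumors of each genotype, among 793 other tested genes. With 6 tumors a genotype these are descriptions. Cpa3 was most like Adap2, H2-M2 and Rgs1 (likeness 0.771 each), and Tpsb2 most like Epor, Adap2 (0.771 each) and Vcam1 (0.714). Adap2, which both proteases share, reached 232 CPM in Kit-B6 tumor 5 and 203 CPM within the library labelled Kit-W/sh tumor 2, the highest tumor of each genotype. Rgs1, a regulator of G protein signalling in immune cells, was at 540 and 373 CPM in these 2 libraries, again the highest of each genotype, and it was also nearest to Hpgds (0.714), before Rgs2 and Zap70 (0.6 each). Kit was nearest to the phosphatase gene Inpp4b (0.771), then to Ceacam10 and Tapbp (0.714 each). Gata2 was nearest to Mr1 (0.829), then to Ceacam2 and Hey1 (0.771 each), and Cma1 to Il18 (0.771), Pycard and Mettl7a1 (0.714 each). Apart from Adap2 and Rgs1, no gene was named for more than 1 member.

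Of 19 other mast cell genes on the list, the panel held 4, with no single pattern among them. Hdc, the histamine-forming enzyme, which neutrophils and other myeloid cells can express too, was at 41.2 to 112 CPM (median 57.3) in Kit-B6 tumors and 108 to 315 CPM (median 159) in Kit-W/sh tumors. Its log2 fold change was 1.33 ± 0.32 (edgeR adjusted p = 0.154), and the library labelled Kit-W/sh tumor 2, at 118 CPM, lay near the low end of its group. The neutrophil list, with 7 measured genes, summed to 805 to 7700 CPM in Kit-B6 and 4930 to 17700 CPM in Kit-W/sh tumors. Most of each sum was Cxcl2 and Cxcl5, which encode secreted ligands of Cxcr2, so it is no measure of neutrophil content. Cxcr2 was at 29.8 to 107 CPM in Kit-B6 and 121 to 402 CPM in Kit-W/sh tumors. Csf3r was at 29.8 to 126 and 106 to 231 CPM, and Fpr1 at 2.06 to 34.2 and 28.5 to 124 CPM. The part of these genes in the Hdc level was not tested. Slc18a2, the vesicular monoamine transporter that loads histamine into granules, was highest among tumors, at 21.6 CPM, within the library labelled Kit-W/sh tumor 2. In Kit-B6 mice Slc18a2 fell by 1.47 ± 0.53 on the log2 scale from preneoplastic colon to tumors (edgeR adjusted p = 0.0341), and Hdc and Csf2rb, a shared chain of cytokine receptors, rose by 2.72 ± 0.49 and 1.13 ± 0.38. In Kit-W/sh mice Hdc and Csf2rb rose by 3.84 ± 0.60 and 1.48 ± 0.45 (edgeR adjusted p = 0.000287 and 0.0179), and Slc18a2 was at -0.71 ± 0.61 (edgeR adjusted p = 0.358). Csf2rb of the library labelled Kit-W/sh tumor 2 was at 287 CPM, within the range of its group (258 to 366 CPM). Ctsg was at 0 to 1.54 CPM in every library, under the floor of 3 counts.

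None of the 16 listed genes of IgE receptor signalling was on the panel. Of the stem cell factor and Kit signalling list, 2 of 12 genes were measured, and in tumors Jak2 (-0.24 ± 0.16) and Ptpn11 (0.05 ± 0.13) did not pass. Among prostanoid and leukotriene genes, 3 of 5 measured genes were tested in tumors and 0 passed. They were Ptgs1, a cyclooxygenase upstream of Hpgds (-0.80 ± 0.28, edgeR adjusted p = 0.238), Hpgd, which degrades prostaglandins (-0.94 ± 0.62), and Ptgds, the other prostaglandin D synthase (0.76 ± 0.88). Hpgd of the library labelled Kit-W/sh tumor 2 was at 2580 CPM against 269 to 939 CPM in the other Kit-W/sh tumors, and Car4 was at 4790 against 98.5 to 1420 CPM. Epcam, the only other epithelial gene measured, went the other way, at 22200 against 23200 to 29500 CPM. The part of epithelial content in the high mast cell transcripts of that library was not tested.

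Cells that share genes with mast cells were checked as well. In tumors, basophil and eosinophil genes summed to 59.8 to 566 CPM in Kit-B6 and 183 to 324 CPM in Kit-W/sh over 5 measured genes. The sum was 193 CPM for the library labelled Kit-W/sh tumor 2 and 138 CPM for Kit-B6 tumor 5. Ccl11, which encodes a secreted ligand of Ccr3, was the largest part of the sum in every tumor. It was at 29.9 to 455 CPM in Kit-B6 and 87.1 to 227 CPM in Kit-W/sh, so the sum is no measure of cell content. Within the library labelled Kit-W/sh tumor 2, Prg2, an eosinophil granule protein, was at 66.3 CPM, the highest of the tumors. Siglecf of the same list was also at its highest level of the Kit-W/sh tumors there, and Ccr3 exceeded all of them but Kit-W/sh tumor 5. Ccl11 (87.1 CPM) and Il5ra, also of that list, had their lowest levels of the Kit-W/sh tumors there. Macrophage genes summed to 1510 to 4010 CPM in Kit-B6 and 2670 to 4370 CPM in Kit-W/sh tumors over 8 measured genes, and Kit-B6 tumor 5 had the highest sum of its genotype. The library labelled Kit-W/sh tumor 2 had the lowest sum of its genotype for macrophage genes (2670 CPM) and for the neutrophil list (4930 CPM). It had the highest for B cell genes (122 CPM). Its neutrophil list sum was mostly Cxcl5 (4080 CPM). Cxcr2 (121 against 185 to 402 CPM) and Fpr1 (28.5 against 63.4 to 124 CPM) were also lowest there. Csf3r (122 against 106 to 231 CPM) was not. Single macrophage genes were mixed there. Cd14 was at 837 against 1660 to 2550 CPM in the other Kit-W/sh tumors. Adgre1 (184 against 87.6 to 166 CPM), Csf1r (497 against 320 to 381 CPM) and Cd163 (6.94 against 0 to 1.83 CPM) were highest there. Cd68, Msr1 and Itgam lay within the range of the others, and Marco was at 0 in every library. Endothelial genes, relevant to Gata2, summed to 506 CPM for the library labelled Kit-W/sh tumor 2, the lowest of its genotype, over 4 measured genes. Of these only Selp was lowest there (52.4 against 91.6 to 236 CPM). Cd34 (352 against 229 to 389 CPM), Kdr (93.3 against 77.4 to 136 CPM) and Sele (7.71 against 4.28 to 40.9 CPM) lay within the range of the others. The part of these cells in the levels of the 8 genes was not tested.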

How the data were processed

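Per the labels' protocols, libraries of 17 samples were made with a QIAseq targeted panel of mouse immuno-oncology genes and read on a MiSeq instrument. The authors deposited whole-number counts per gene, 1 table per library, with 993 entries, of which 5 genomic control entries held 0 counts and were left out. The submitters' processing notes name the mm9 build and DESeq2, and the aligner, counter and use of molecular tags are not given in the sources used here. Amplified reads are not independent molecules, so intervals and floors cover counting error only, and p-values measure the spread between samples, which may be technical. Within groups all pairs of libraries differed beyond counting noise (lowest chi-square per degree of freedom 13.03). The labels give no batch.

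Counts were tested with edgeR 4.0.16 in R 4.3.3 (TMM scaling, filterByExpr with minimum count 10 and minimum total 15, robust quasi-likelihood F test, two-sided), with Benjamini-Hochberg adjustment over all genes tested and a threshold of 0.05. Genotypes were compared within a stage, and stages and the interaction in 1 fit of all 17 libraries. Levels are CPM after TMM scaling. Exact permutation tests and correlations used log2(CPM + 1) in Python 3.11.15 with scipy 1.17.1, and every correlation p came from all 720 orders. The edgeR fits were checked on simulated counts. These were drawn gene by gene, with no library made high for several genes, so nothing about the 8 genes is read from them. DESeq2 1.42.0, other scalings, no filter, a replicate block and leaving out each library were alternatives. The 8 genes, 15 gene lists and rules were chosen with earlier results of these data known. The rule named the 8 genes, the measured other mast cell genes, the 3 most alike genes per member and up to 4 genes of every other list by smallest p. Car4 and Hpgd come under that rule. Single-library values of Thbs4, Car4, Epcam, Hpgd, Prg2, Il5ra, Ccl11, Siglecf and Ccr3 were singled out after they were seen. So were those of single macrophage, neutrophil and endothelial genes. The labels do not say whether replicate numbers pair the samples, and the main fits did not use them as pairs.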

Additional observations from a re-analysis of the deposited data

Results flagged for a closer look

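A single tumor stood apart from the rest of its group by Dixon's criterion in 10 of 16 checks (8 genes in 2 groups of 6 tumors), where chance flags about 1 group in 20 if values are normally distributed. These checks used CPM, which is skewed. On the log2(CPM + 1) scale, a check added after seeing the data, 3 of 16 stood apart (Tpsab1 and Ms4a2 in Kit-W/sh, Hpgds in Kit-B6). On CPM, the library labelled Kit-W/sh tumor 2 stood apart for 6 genes. Kit was at 258 CPM there, Cpa3 at 460 CPM, Tpsb2 at 185 CPM, Tpsab1 at 54.0 CPM, Cma1 at 53.2 CPM and Ms4a2 at 27.8 CPM. The next highest Kit-W/sh tumors had 99.5, 9.81, 30.8, 2.26, 15.5 and 2.26 CPM of these genes. Kit-B6 tumor 5 stood apart on CPM for 4 genes, with Cpa3 at 256 CPM, Tpsb2 at 275 CPM, Tpsab1 at 37.1 CPM and Hpgds at 525 CPM. The next highest Kit-B6 tumor had 83.8, 55.7, 10.5 and 190 CPM of these. Cpa3, Tpsb2 and Tpsab1 stood apart in both genotypes on CPM, and none of them did so in both on the log2(CPM + 1) scale.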

How the results depend on the processing

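Depth limits Ms4a2, Tpsab1 and preneoplastic Cpa3, which lay near 3 counts. Over 22 fold changes and 337 alternatives, 312 kept direction and call, 20 reversed direction and 5 became calls. This tally leaves out Tpsab1, and for the interaction every gene but Kit. No main result was a call, so a call could not be lost. Genes called in tumors numbered 24 with DESeq2. In preneoplastic colon they numbered 20 with DESeq2 and 0 with unscaled totals, with the replicate block or in the fit of all libraries, and 0 to 16 leaving out each library. Leaving out each library gave 0 in tumors, 265 to 425 and 132 to 367 between stages in Kit-B6 and Kit-W/sh, and 0 to 2 for the interaction (1 with DESeq2). With the replicate block the Cpa3 difference in tumors was -2.87 and the preneoplastic Hpgds difference 0.02, and Cpa3 was called between Kit-W/sh stages (adjusted p = 0.0437). Same-numbered tumors correlated at -0.229 to 0.364, 3 of 6 best with their own number. Leaving out each library, Cpa3 ranged from -4.48 to 0.99, Tpsb2 from -2.37 to 0.61 and Cma1 from -0.99 to 0.27 in tumors. Preneoplastic Gata2 ranged from -0.85 to 0.27 and Hpgds from -0.24 to 0.15. Between stages, Kit-B6 Cma1 ranged from -0.07 to 1.30 and Hpgds from -0.60 to 0.11, and Kit-W/sh Cma1 from -0.23 to 0.84. Kit-B6 Cpa3 between stages was called in the fit of Kit-B6 libraries only (3.67, adjusted p = 0.0491). Unscaled totals put Hpgds between Kit-B6 stages at 0.12 and Kit between Kit-W/sh stages at 0.07. Of the permutation differences, Ms4a2 was 0.02 with pseudocount 4, and leaving out each tumor Cma1 ranged from -0.58 to 0.14. The Kit-W/sh median correlation was 0.82 and 0.85 by Pearson's r with pseudocounts 1 and 4, and 0.16 to 0.70 leaving out each tumor, with -0.10 to 0.45 in Kit-B6. For these changes the cause was not tested.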
